A study of Mus musculus with 61 samples.

Results

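The mouse liver expresses a large family of carboxylesterases, and 10 of its genes (Ces1c, Ces1d, Ces1e, Ces1f, Ces1g, Ces2a, Ces2c, Ces2e, Ces3a and Ces3b) were followed across 8 inbred strains. The genes were taken by symbol from a deposited table of 18754 genes. All 10 were found, and all 10 passed the filter on low counts that left 16165 genes for testing. The samples were livers of mice of those strains, the founders of Diversity Outbred mice (an outbred population bred from inbred lines), and messenger RNA was sequenced. The groups, named as in the labels, were strain-129, NOD, NZO, PWK and WSB with 8 libraries each, B6 and Cast with 7 each and AJ with 6. The strain whose label is a bare number is written here with a prefix. Every group received the same high-fat, high-sugar diet, labelled as 45 percent fat, so that no value here refers to another diet. The labels state no genotype beyond the strain, no sex, no age and no batch, and do not call the libraries of a strain separate animals. What a p-value measures here is thus the spread among libraries, part of which may be technical. Within every strain, libraries also differed in Xist, an RNA described below.

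Carboxylesterases are serine hydrolases that cleave ester, thioester and amide bonds. In the hepatocyte most of them are held in the lumen of the endoplasmic reticulum, where they clear drugs and other foreign esters and also act on triglycerides and cholesteryl esters. Some members release fatty acids from stored triglyceride for the assembly of very-low-density lipoprotein (VLDL), and others detoxify pesticides and prodrugs.

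Libraries held 19.98 to 69.2 M reads (median 30.4 M), and every library correlated best with a library of its own strain. All 8 hepatocyte markers were in the table, with a summed level of 34777 to 149471 CPM (counts-per-million). None of 6 kidney tubule markers, 1 of 6 adipocyte, 2 of 6 enterocyte and 1 of 6 exocrine pancreas markers were in it. Summed levels reached 12.2 CPM for adipocyte, 150.3 for enterocyte and 26.3 for exocrine pancreas markers. Why the other markers were missing from the table was not tested. A level here is CPM on library sizes scaled by the trimmed mean of M-values (TMM), and reads are not independent molecules, so read numbers cover counting error alone. In whole tissue, fewer cells of a type and less RNA per cell cannot be told apart.

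The 10 genes lie on chromosome 8 in separate groups, with coordinates of the deposited gene table in GRCm38. The Ces1 genes occupied chr8:93020214-93337308 on the minus strand, where the table held 7 genes, all of the family. Ces2 and Ces3 genes occupied chr8:104734003-105093929 on the plus strand, with 9 genes, again all of the family. Between these groups the table listed 60 other genes over 11.4 Mb.

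Because members arose from one another by duplication, parts of their transcripts cannot be told apart by short reads, and the stretches concerned are shown before any value. Coding sequences (GENCODE vM21, GRCm38) of the 45 pairs of members were 61.1 to 95.3% identical, with a median of 62.6%. Ces3a and Ces3b were the closest, at 95.3%, and 33.9% of the 50-base windows of each occurred in the other, with a longest shared run of 194 bases. Ces1c was 90.9% identical to Ces1b, and Ces2c was 92.1% identical to Ces2b, neither of which is a member. The deposited counts of exactly these 4 members were not whole numbers in most libraries, in 60 of 60 for Ces3a and Ces3b, in 58 for Ces1c and in 52 for Ces2c. Counts of the other 6 members were whole throughout. Values of Ces1c, Ces2c, Ces3a and Ces3b therefore depend on how the authors' counting divided shared reads. The build given, GRCm38, is that of a B6 mouse. Whether reads of the other strains, among them the wild-derived Cast, PWK and WSB, were counted in full and for the right copy was not tested, which bears on every level of the family in those strains. The stretches of 120 coding bases printed here, each running into the start of the longest shared run of its pair, are given 5′ to 3′, and capitals mark the bases that differ within the pair (4 in Ces3a and Ces3b, 2 in Ces1b and Ces1c, 9 in Ces2b and Ces2c).
Ces3a: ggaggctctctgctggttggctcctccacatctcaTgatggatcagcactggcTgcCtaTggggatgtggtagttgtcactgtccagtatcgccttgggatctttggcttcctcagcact
Ces3b: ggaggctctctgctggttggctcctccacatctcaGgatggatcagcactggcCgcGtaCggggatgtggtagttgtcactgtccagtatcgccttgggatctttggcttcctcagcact
Ces1b: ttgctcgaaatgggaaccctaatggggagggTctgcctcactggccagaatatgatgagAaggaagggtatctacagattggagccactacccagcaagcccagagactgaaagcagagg
Ces1c: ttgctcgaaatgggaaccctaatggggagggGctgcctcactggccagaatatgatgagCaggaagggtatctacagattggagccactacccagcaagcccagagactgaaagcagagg
Ces2b: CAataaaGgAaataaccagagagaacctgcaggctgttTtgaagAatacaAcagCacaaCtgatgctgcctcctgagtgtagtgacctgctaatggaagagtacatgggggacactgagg
Ces2c: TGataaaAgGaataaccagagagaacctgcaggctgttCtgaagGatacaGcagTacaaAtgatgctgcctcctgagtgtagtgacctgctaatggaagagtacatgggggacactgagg

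RefSeq (GRCm38.p6) gave a promoter window for 7 of the 10 members, 250 bases before to 50 after the start of the gene, and none was given for Ces1d, Ces1f and Ces3a. The 3 Ces2 members are shown because 2 of them, Ces2a and Ces2e, had their lowest level in the same strain while Ces2c did not. The 250 bases before the start are printed 5′ to 3′ on the plus strand, with capitals on each match to CCAAT on either strand.
Ces2a (chr8:104733753-104734002): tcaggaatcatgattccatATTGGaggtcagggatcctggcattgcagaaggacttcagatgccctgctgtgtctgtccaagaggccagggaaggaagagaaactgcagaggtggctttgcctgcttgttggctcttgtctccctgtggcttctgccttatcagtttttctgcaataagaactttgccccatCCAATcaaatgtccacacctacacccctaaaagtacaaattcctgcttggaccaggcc
Ces2c (chr8:104846818-104847067): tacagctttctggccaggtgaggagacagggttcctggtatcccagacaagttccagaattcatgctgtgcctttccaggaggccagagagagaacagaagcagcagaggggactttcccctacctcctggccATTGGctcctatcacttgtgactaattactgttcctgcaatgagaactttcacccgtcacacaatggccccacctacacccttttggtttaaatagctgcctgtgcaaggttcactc
Ces2e (chr8:104926010-104926259): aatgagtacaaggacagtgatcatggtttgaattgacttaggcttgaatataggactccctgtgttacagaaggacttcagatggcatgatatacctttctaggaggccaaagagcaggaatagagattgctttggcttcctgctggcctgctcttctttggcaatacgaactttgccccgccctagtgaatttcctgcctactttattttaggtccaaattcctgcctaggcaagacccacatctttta
Over the full windows of 300 bases, the Ces2 promoters were 66.3 to 69.1% identical in their aligned bases. Of 4 motifs searched on both strands, CCAAT was in 5 of the 7 windows and in 37.4% of all 32851 windows of the RefSeq table. TATAAA was in 2 of the 7, Ces1g and Ces3b, and in 13.6% of all windows. CAAAGTCCA (in 0.47% of all windows) and TGACNNNGC (in 12.4%) were in none of the 7. These are letter matches in the reference genome, whose sequence is that of a B6 mouse and not of the other strains, and TATAAA and CCAAT matches did not overlap.

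Ces1c was the most abundant member per length of transcript and Ces2c the least. Dividing the median CPM over all 60 libraries by the exon length in kb gave 1283 CPM per kb for Ces1c, 593.9 for Ces3a, 203.8 for Ces1d and 161.3 for Ces1f. Ces3b stood at 82.9, Ces1e at 63.8, Ces2e at 53.4, Ces2a at 52.4, Ces1g at 29.9 and Ces2c at 4.60 CPM per kb. Ces1c took 45.7% and Ces3a 25.5% of the summed CPM of the 10 genes on average.

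Summed over the 10 genes, the level was highest in NOD and lowest in Cast. The sum was 7521 ± 480.1 CPM (SD, n = 8) in NOD, 6801 ± 701.4 in AJ (n = 6), 6437 ± 843.5 in strain-129 (n = 8) and 6313 ± 473.6 in WSB (n = 8). It was 5237 ± 638.1 in PWK (n = 8), 5217 ± 437.7 in B6 (n = 7), 3796 ± 794.7 in NZO (n = 8) and 2616 ± 1573 in Cast (n = 7). In NOD this came to 0.752% of the TMM-scaled library size, in Cast to 0.262%. The libraries of NOD (6644 to 8117 CPM) lay above all libraries of NZO (2091 to 4662) and of Cast (314.9 to 3921). Makeup differed as well as the sum: Ces3a and Ces3b together accounted for 45.9% of it in WSB and 15.7% in NZO.

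**Figure D1:**
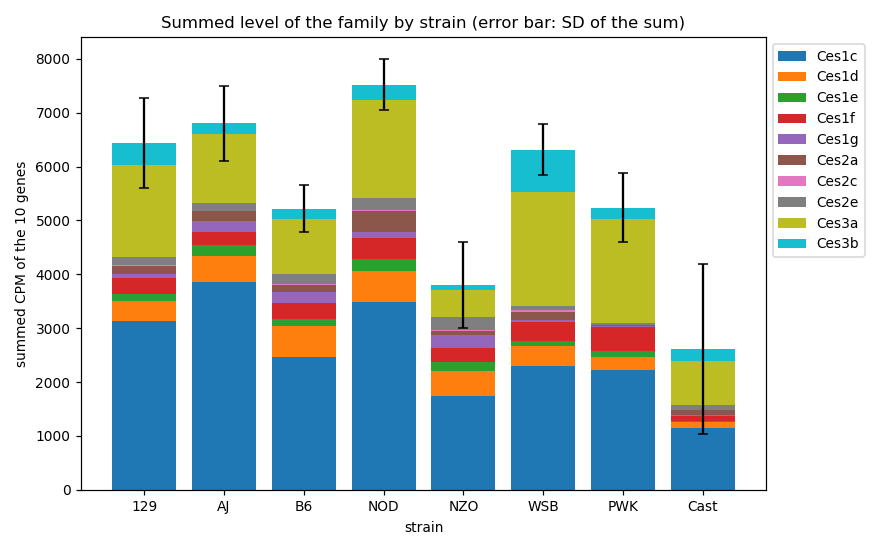
Stacked mean CPM of the 10 genes in each strain, with error bars for the SD of the sum over libraries. NOD has the tallest bar (7521 CPM) and Cast the lowest (2616 CPM), and the Ces1c and Ces3a segments make up most of every bar.

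All 10 members differed among the 8 strains, where 89.8% of all genes tested did (edgeR quasi-likelihood F test, adjusted over all genes). Adjusted p-values ran from 0.000647 for Ces1f to 1.77e-15 for Ces2a. Strain took up a share of the log2 CPM variance of 82.1% for Ces2a, 81.2% for Ces1g, 80.8% for Ces2e and 79.6% for Ces1e. The share was 59.0% for Ces3b, 52.2% for Ces1c, 50.4% for Ces1d, 48.8% for Ces2c, 45.4% for Ces3a and 41.1% for Ces1f, beside a median of 49.3% over all genes tested. The share was thus far above that median in 4 members and within 10 percentage points of it in the other 6.

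Each strain was then set against the mean of the other 7 on the log2 scale, and the standard error (SE) given with such a fold change was derived from its F statistic. Among the 80 combinations of a member and a strain, 22 were called higher and 14 lower at an adjusted p under 0.05. Cast was lower in 6 of 10 members and higher in none, where 59.6% of all genes were called. NOD was higher in 6 and lower in none (28.3% of all genes called). AJ was higher in 4 (24.1%), B6 higher in 3 (34.1%) and strain-129 higher in 1 (24.6%), each with none lower. NZO had 3 higher and 3 lower (46.1%), PWK 1 higher and 3 lower (45.2%), and WSB 4 higher and 2 lower (45.0%). In either direction, the members' share was thus near that of all genes in B6, Cast and PWK, below it in strain-129, and above it in AJ, NOD, NZO and WSB. By direction, 4974 of the 16165 genes were higher and 4656 lower in Cast, where the called members were all lower. In NOD 2700 genes were higher and 1880 lower, in AJ 2121 and 1772, in B6 3131 and 2375 and in strain-129 2218 and 1761. In these 4 strains the called members were all higher. The median log2 fold change of the members was -1.41 in Cast, -0.37 in PWK, 0.11 in NZO, 0.23 in WSB, 0.26 in B6, 0.40 in AJ, 0.43 in strain-129 and 0.80 in NOD, while that of all genes was between -0.02 and 0.02 in every strain. Over the 28 pairs of strains, 46.1% of 280 tests of a member were called, beside 37.5% of the tests of all genes.

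**Figure D2:**
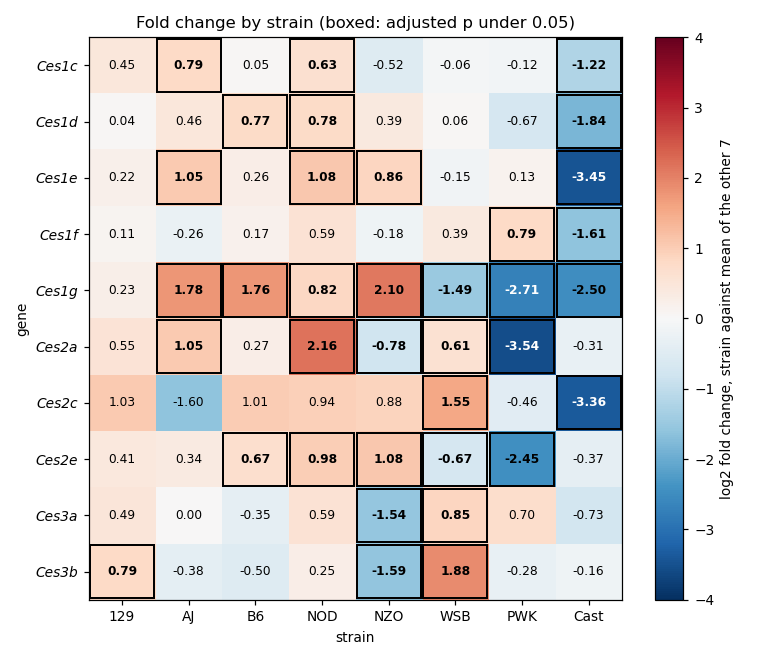
Log2 fold change of each gene (rows) in each strain (columns) against the mean of the other 7, red for higher and blue for lower, with a box where the adjusted p was under 0.05. The deepest blue cells are Ces2a in PWK (-3.54), Ces1e in Cast (-3.45) and Ces2c in Cast (-3.36), and the strongest red are Ces2a in NOD (2.16) and Ces1g in NZO (2.10).

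No strain was at the extreme for the whole family. Cast had the lowest mean of 5 members (Ces1c, Ces1d, Ces1e, Ces1f and Ces2c), PWK of 3 (Ces1g, Ces2a and Ces2e) and NZO of 2 (Ces3a and Ces3b). The highest mean was in NOD for 3 members, in WSB for 3, in NZO for 2 and in AJ and PWK for 1 each. When the strains were ordered by mean level, 8 of 70 neighbouring pairs differed at an adjusted p under 0.05, and 7 members had at least 1 such step. The order was set by the same levels that were then tested. How often neighbouring strains differ over all genes was not counted, so these numbers have no background beside them.

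**Figure D3:**
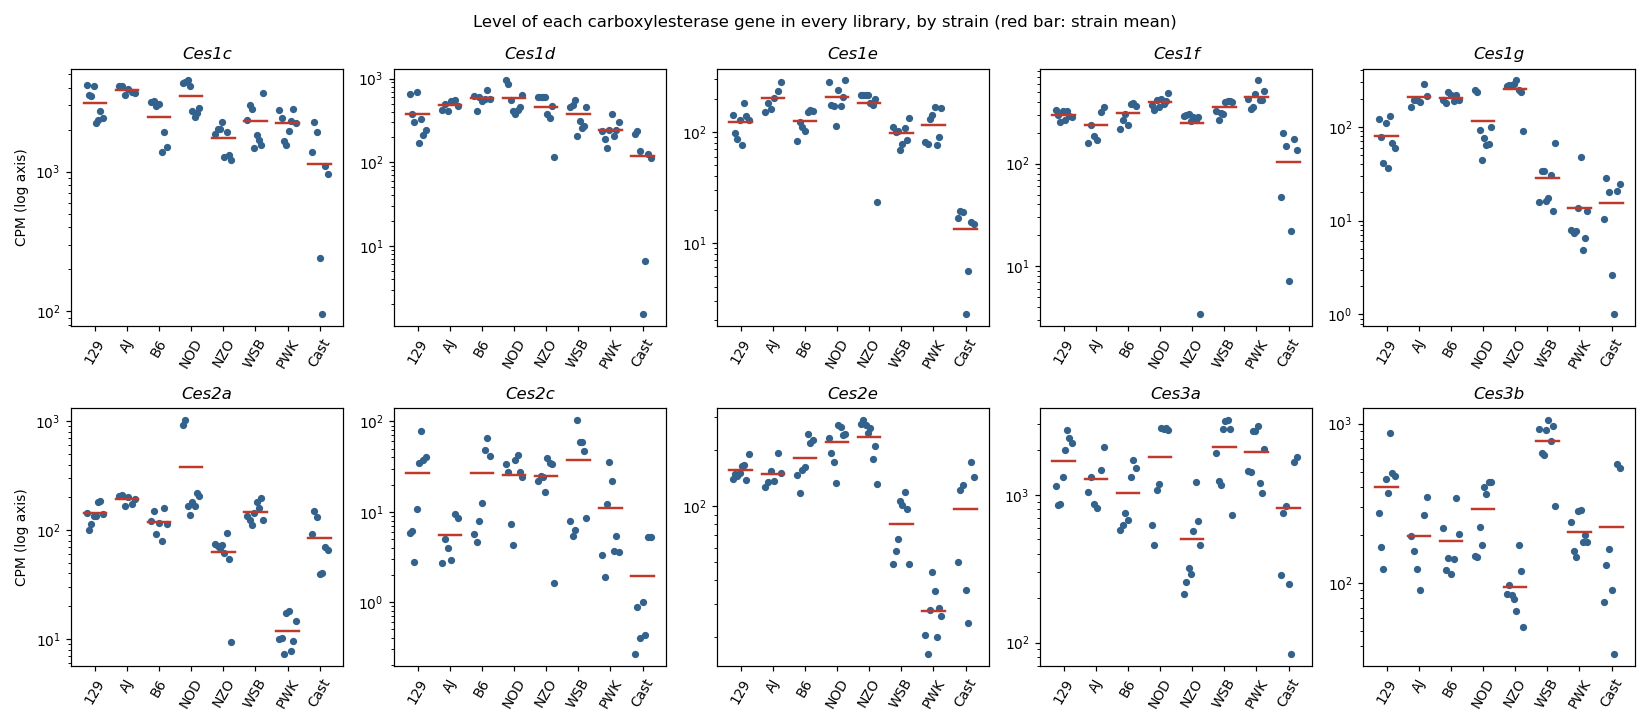
CPM of each gene (log axis) in each of 60 libraries, by strain, with a red bar for the strain mean. For Ces1e all Cast libraries (2.28 to 19.3 CPM) lie below all others, and for Ces2a all PWK libraries (7.28 to 17.9 CPM) lie below all others except 1 NZO library at 9.45 CPM.

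Ces1c encodes a carboxylesterase that is secreted into blood plasma, the main esterase of mouse serum. It ranged from 3571 to 4136 CPM in AJ (median 3838, n = 6) and from 95.3 to 2275 in Cast (median 1092, n = 7), with no overlap. Against the mean of the other 7, AJ was higher (log2 fold change 0.79, SE 0.24, adjusted p = 0.00918) as was NOD (0.63, SE 0.21, adjusted p = 0.0203), while Cast was lower, at -1.22 (SE 0.26, adjusted p = 8.1e-05). Means fell in the order AJ (3857 CPM), NOD (3487), strain-129 (3131), B6 (2461), WSB (2291), PWK (2217), NZO (1737) and Cast (1139), and no neighbouring pair in that order differed at the threshold. The NOD call was lost without NOD 1, 2 or 3 (highest adjusted p = 0.0616). AJ was also the most even, with a coefficient of variation of 6.29% against 21.2 to 70.9% in the other strains.

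Ces1d encodes triacylglycerol hydrolase, which mobilises stored triglyceride for VLDL secretion. Its level was 378.2 to 955.0 CPM in NOD (median 504.2), 405.4 to 739.5 in B6 (median 572.5) and 1.53 to 234.3 in Cast (median 124.5). Cast was lower (log2 fold change -1.84, SE 0.39, adjusted p = 5.45e-05), also than its neighbour in the order, PWK (mean 242.0 CPM, adjusted p = 0.0444). NOD (0.78, SE 0.29, adjusted p = 0.0377) and B6 (0.77, SE 0.31, adjusted p = 0.0473) were higher. The B6 call was lost in 38 of 60 fits that each left out 1 library. It was also lost in a separate fit with no filter on low counts and in another without the counts of Rn18s-rs5. The NOD call was lost without NOD 1, 2, 3 or 8.

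Ces1e encodes egasyn, the protein that holds beta-glucuronidase in the endoplasmic reticulum. In Cast it ranged from 2.28 to 19.3 CPM (median 15.6, n = 7), below every library of every other strain. Levels reached 113.1 to 293.6 CPM in NOD (median 191.2), 152.3 to 286.0 in AJ (median 193.6) and 23.4 to 216.7 in NZO (median 207.5). B6 (82.7 to 159.3, median 122.7), strain-129 (76.3 to 182.1, median 128.5), PWK (77.1 to 167.6, median 110.4) and WSB (68.4 to 134.2, median 100.9) formed an overlapping middle. The log2 fold change of Cast was -3.45 (SE 0.30, adjusted p = 9.56e-15), and the step from WSB down to Cast was the only one between neighbours that was called (2.88, SE 0.32, adjusted p = 4.58e-11). NOD (1.08), AJ (1.05) and NZO (0.86) were called higher, with adjusted p-values of 1.5e-05, 0.000189 and 0.00032. Gusb, the gene of beta-glucuronidase, was 34.8 ± 4.60 CPM in Cast (SD, n = 7), slightly above the mean of the other 7 (log2 fold change 0.18), and highest in WSB at 52.5 ± 4.07 CPM (SD, n = 8).

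Ces1f encodes another triacylglycerol hydrolase of hepatocytes. Its levels were 338.5 to 649.6 CPM in PWK (median 424.8) and 7.19 to 200.6 in Cast (median 134.6), which did not overlap. PWK was higher (log2 fold change 0.79, SE 0.27, adjusted p = 0.0121) and Cast lower (-1.61, SE 0.35, adjusted p = 7.65e-05). The other 6 strains, with means of 237.4 to 397.8 CPM, were not called. Ces1f was the only Ces1 member with a higher call in PWK.

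Ces1g, a lipid-metabolising carboxylesterase also known as esterase-x, changed in more strains than any other member, 7 of 8. NZO libraries held 90.8 to 313.3 CPM (median 275.1), AJ 164.5 to 286.6 (median 193.8) and B6 178.7 to 236.4 (median 194.7). NOD ranged from 43.8 to 249.5 (median 83.9) and strain-129 from 36.4 to 131.6 (median 71.9), and both overlapped NZO and each other. WSB (12.7 to 67.3, median 23.8), Cast (1.01 to 28.6, median 20.0) and PWK (4.86 to 48.1, median 7.83) were low and overlapped. Fold changes on the log2 scale were 2.10 in NZO (SE 0.27, adjusted p = 4.71e-09), 1.78 in AJ (adjusted p = 9.99e-06), 1.76 in B6 (adjusted p = 2.32e-06) and 0.82 in NOD (adjusted p = 0.0318, lost without NOD 1 or NOD 2). They were -2.71 in PWK (SE 0.40, adjusted p = 8.85e-08), -2.50 in Cast (adjusted p = 9.99e-07) and -1.49 in WSB (adjusted p = 0.000654). The single step between neighbours that was called lay between strain-129 and WSB (adjusted p = 0.00513).

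Ces2a, a hydrolase of liver and intestine, had strain means from 377.8 CPM in NOD to 11.9 in PWK. PWK libraries held 7.28 to 17.9 CPM (median 10.1, n = 8). Those of NZO ranged from 9.45 to 93.6 (median 69.7), Cast from 39.8 to 150.9 (median 70.1) and B6 from 79.5 to 160.7 (median 117.0). In strain-129 the range was 99.6 to 185.1 (median 138.8), in WSB 112.4 to 197.4 (median 139.3), in AJ 165.3 to 211.9 (median 197.1) and in NOD 137.0 to 1022 (median 194.1). All PWK libraries were thus below all others except 1 of NZO. PWK was lower (log2 fold change -3.54, SE 0.33, adjusted p = 1.13e-13), as was NZO (-0.78, adjusted p = 0.0122). NOD (2.16, SE 0.21, adjusted p = 1.39e-12), AJ (1.05, adjusted p = 0.0014) and WSB (0.61, adjusted p = 0.0294, lost without the WSB library numbered 6, 7 or 8) were higher. The NOD mean rests on 2 libraries at 922.7 and 1022 CPM, with the other 6 at 137.0 to 219.4, and without them NOD was still called, at 1.08 (adjusted p = 1.18e-05).

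Ces2c, a lipid hydrolase of intestine and liver, was the least abundant member and the least even. Its libraries ran from 5.42 to 103.3 CPM in WSB (median 27.96), from 2.81 to 78.1 in strain-129 (median 22.7) and from 0.27 to 5.32 in Cast (median 0.88). Cast was lower (log2 fold change -3.36, SE 0.73, adjusted p = 8.13e-05) and WSB higher (1.55, SE 0.45, adjusted p = 0.00373), although without the WSB library numbered 5 the WSB call was lost (adjusted p = 0.0549). AJ, at 2.71 to 9.52 CPM, had a fold change of -1.60 that was not called (SE 0.67, adjusted p = 0.072). Within strains the coefficient of variation was 48.8 to 118.8%, and no neighbouring pair of strains differed.

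Ces2e, also named pyrethroid hydrolase after a class of insecticides, was low in PWK and WSB. PWK held 16.2 to 44.4 CPM (median 26.8), WSB 49.1 to 119.1 (median 81.5) and Cast 23.7 to 172.3 (median 122.1). AJ ranged from 126.0 to 192.8 (median 143.5), strain-129 from 137.7 to 190.3 (median 149.3), B6 from 117.4 to 244.3 (median 162.6), NOD from 133.6 to 272.6 (median 237.1) and NZO from 130.6 to 288.6 (median 254.0). PWK did not overlap WSB or any of the 5 strains above Cast. PWK was lower by -2.45 on the log2 scale (SE 0.23, adjusted p = 1.17e-13) and WSB by -0.67 (adjusted p = 0.00457). NZO (1.08, SE 0.17, adjusted p = 5.01e-07), NOD (0.98, adjusted p = 8.15e-06) and B6 (0.67, adjusted p = 0.00364) were higher. Steps between neighbours were called from AJ to Cast (0.63, adjusted p = 0.0498) and from WSB to PWK (1.56, adjusted p = 6.77e-07).

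Ces3a and Ces3b, neighbouring genes expressed mainly in liver, were both highest in WSB and lowest in NZO. Ces3a ranged from 736.5 to 3206 CPM in WSB (median 2353) and from 212.8 to 1225 in NZO (median 390.4), and these ranges overlapped. Ces3b ranged from 304.0 to 1050 CPM in WSB (median 846.4) and from 52.7 to 172.3 in NZO (median 84.7), without overlap. In WSB the log2 fold change was 0.85 for Ces3a (SE 0.30, adjusted p = 0.0166) and 1.88 for Ces3b (SE 0.24, adjusted p = 6.26e-09). In NZO it was -1.54 for Ces3a (SE 0.36, adjusted p = 0.000403) and -1.59 for Ces3b (SE 0.32, adjusted p = 5.28e-05). Ces3b was also higher in strain-129 (0.79, SE 0.27, adjusted p = 0.0223), a call lost without the strain-129 library numbered 7 or 8, and the Ces3a call in WSB was lost without the WSB library numbered 6 or 7.

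Since reads shared by near-identical genes may be divided in more than 1 way, sums over each pair were also formed. The sum of Ces3a and Ces3b was 2900 ± 1188 CPM in WSB (SD, n = 8) and 595.1 ± 363.0 in NZO (SD, n = 8), again the highest and the lowest strain. Ces3a was 71.7% of that sum in WSB and 77.8 to 89.4% in the other strains. With Ces1b added, Ces1c kept AJ as the highest (3951 CPM) and Cast as the lowest strain (1293 CPM). The pair of Ces2b and Ces2c gave another order: its sum was highest in Cast, at 73.4 ± 75.4 CPM (SD, n = 7), where Ces2b made up 96.2% of it. In PWK Ces2b was 44.7% of the sum, and in the other 6 strains 0.63 to 3.55%. How much of the low Ces2c in Cast reflects the division of shared reads was not tested.

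Other genes of the family were described from a list of 10, of which 7 were in the table. Among strains 6 differed, as did 89.8% of all genes tested. Ces2h was 92.1 ± 6.41 CPM in WSB, 79.8 ± 13.0 in PWK (both SD, n = 8) and 30.9 ± 23.8 in Cast (SD, n = 7), and its mean was 0.27 to 0.66 CPM in the other 5 strains. Its log2 fold changes were 5.71, 5.48 and 3.91 in these 3 strains. Ces2b was 71.5 ± 73.3 CPM in Cast (SD, n = 7), 5.55 ± 1.99 in PWK (SD, n = 8) and at most 2.28 on average elsewhere. Ces1b was highest in Cast (153.6 ± 58.9 CPM, SD, n = 7) and lowest in WSB (6.39 ± 4.16 CPM, SD, n = 8). In Cast 3 family genes outside the 10 were called higher (Ces1b, Ces2b and Ces2h) and 2 lower (Ces4a at -2.98 and Ces2g at -0.31 on the log2 scale), beside 6 of the 10 that were lower. Of all genes tested, 59.6% were called in Cast in either direction.

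Genes of neighbouring pathways were counted as lists. Of all genes tested, 59.6% were called in Cast, 46.1% in NZO, 45.0% in WSB and 28.3% in NOD, in either direction. The lipase and esterase count in Cast was above that share, and the other list counts given here were near or below it. Of 19 other liver lipases and esterases tested, 5 were higher and 9 lower in Cast, with a median log2 fold change of -0.31, and 8 were higher and 2 lower in NZO (median 0.22). In NOD 3 were higher and 1 lower (median 0.09). Pnpla3, a lipid droplet lipase, was at -3.75 in Cast and 3.88 in NZO, and Pon2, a lactonase, at -2.97 in Cast. Of 8 VLDL assembly genes, 3 were higher and 2 lower in Cast (median 0.10), 3 higher and 1 lower in WSB (median 0.10), and 1 higher and none lower in NOD (median 0.05). Of 12 transcription factors of hepatic drug and lipid genes, 1 was higher and 5 lower in Cast (median -0.15), and 1 higher and 4 lower in NZO (median -0.06). Nr1i3, the drug-sensing receptor CAR, was called higher in strain-129 (1.04) and NOD (0.54) and lower in Cast (-0.76), NZO (-0.81) and PWK (-0.81), and Nr1i2, the receptor PXR, did not differ among strains at the threshold (adjusted p = 0.561).

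Libraries of some strains stood apart for the family and touch several results. The NZO library numbered 8 was below all other NZO libraries in 9 of 10 members, as were 25.4% of all genes tested, with Ces1f at 3.41 CPM against 258.9 to 307.4. It also held the highest levels of the acute-phase genes Saa1 (7371 CPM), Saa2 (7671 CPM) and Lcn2 (1140 CPM) in the series. Its hepatocyte marker sum was the lowest (34777 CPM), and its marker sums of cholangiocytes (158.5 CPM), Kupffer cells and macrophages (705.9 CPM) and lymphocytes (10.3 CPM), each over 6 of 6 listed genes, were the highest. Its stellate cell sum was 275.5 CPM (series median 274.9) and its sinusoidal endothelial sum 285.7 CPM (series median 313.8). The part of the acute-phase and marker levels in the result was not tested.

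Among Cast libraries, the one numbered 6 was below the other 5 in 9 of 10 members, and the one numbered 5 in 8 of 10, where 20.2% and 24.5% of all genes tested were. Ces1d was 1.53 CPM in Cast 5 and 6.63 in Cast 6, against 113.3 to 234.3 in the rest, and Ces1c was 239.0 and 95.3 CPM against 959.4 to 2275. Saa1 was 3874 CPM in Cast 6 and 570.9 in Cast 5. Cast 3 held more of it than Cast 5, 1126 CPM, with Ces1c at 1929 and Ces1d at 135.2 CPM. The part of the acute-phase level in the low values was not tested. With NZO 8, Cast 5 and Cast 6 left out, a choice made after seeing the data, Cast was still lower in 6 members, with log2 fold changes of -3.10 for Ces1e, -2.07 for Ces1g, -3.05 for Ces2c, -1.38 for Ces1d, -1.21 for Ces1f and -0.80 for Ces1c. NZO then had 8 members called in place of 6, and 152 of the 280 pairwise tests were called. The share of all genes called in this fit was not counted, so these numbers have no background beside them.

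The NOD libraries numbered 1 and 2 differed from the other 6 of that strain in both directions: NOD 1 was above all of them in 3 members and below in 2, and NOD 2 above in 3 and below in 3. Of all genes tested, 19.96% were above and 18.1% below in NOD 1, and 18.5% and 18.04% in NOD 2. Ces2a was 922.7 and 1022 CPM, Ces1g 249.5 and 233.0 CPM against 43.8 to 99.4, and Ces1d 955.0 and 859.1 CPM against 378.2 to 635.5. Ces3a, at 623.2 and 455.9 CPM, was below the other 6 (1075 to 2849). NOD 1 to 4 were the libraries of high Xist in NOD, a split described below. Among these NOD 3 and NOD 4 held 1075 and 1181 CPM of Ces3a, and the low-Xist libraries held 2737 to 2849. Cyp3a11, a cytochrome P450 that is induced by many drugs, was 15049 and 14419 CPM in them, where the next library of the series held 3578; its part in the result was not tested. Without both libraries, NOD had 4 members called in place of 6: Ces1c (adjusted p = 0.139), Ces1d (0.33) and Ces1g (0.781) were no longer called, and Ces3a was (0.89 on the log2 scale, adjusted p = 0.0347). NOD 3 and NOD 4 are then the only high-Xist libraries left in NOD, and the part of this in the changed calls was not tested. The share of all genes called without NOD 1 and NOD 2 was not counted.

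**Figure D4:**
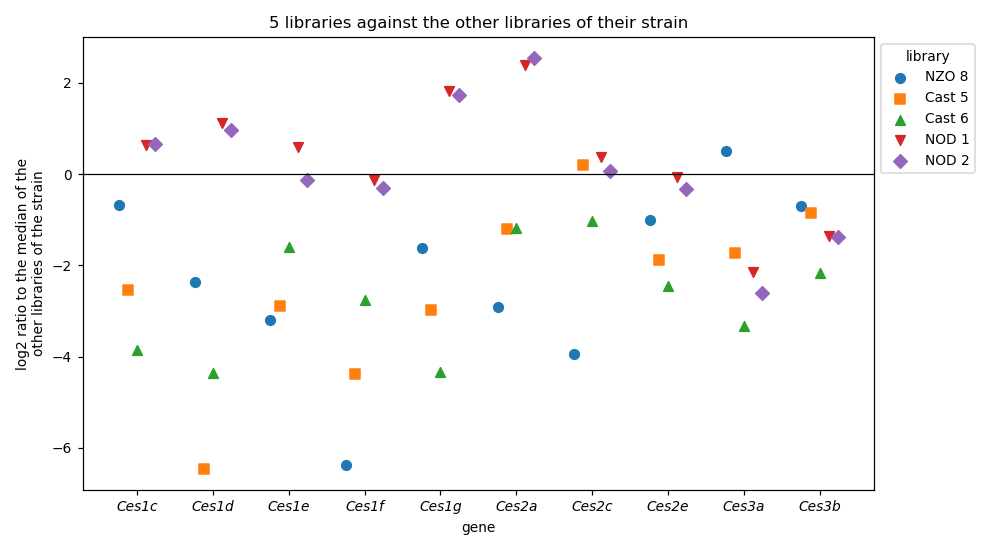
Log2 ratio of 5 libraries to the median of the other libraries of their strain, for each gene. NZO 8, Cast 5 and Cast 6 lie below 0 for most genes, down to -6.39 for Ces1f in NZO 8 and -6.47 for Ces1d in Cast 5, and NOD 1 and NOD 2 lie above 0 for Ces1d, Ces1g and Ces2a and below 0 for Ces3a and Ces3b. The other libraries of each strain include both high-Xist and low-Xist ones.

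Xist, the RNA that coats the inactive X chromosome, split the libraries of each strain. It was 645.7 to 1422 CPM in 31 libraries and 0.201 to 8.89 CPM in the other 29, and the labels do not say what distinguishes them. In a model with strain and log2 CPM of Xist, 4 members were lower with more Xist (Ces2c, Ces3a, Ces3b and Ces2e) and 2 higher (Ces1c and Ces1d), where 34.9% of all genes were called. The slopes, in log2 units per log2 unit of Xist, were -0.21 for Ces2c (SE 0.03, adjusted p = 6.82e-08), -0.12 for Ces3a (SE 0.02, adjusted p = 4.44e-08) and -0.08 for Ces3b (SE 0.02, adjusted p = 0.000381). They were -0.03 for Ces2e (adjusted p = 0.0428), 0.08 for Ces1c (SE 0.01, adjusted p = 2.62e-06) and 0.06 for Ces1d (adjusted p = 0.0189).

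Ces3a showed the split in most strains. In NOD the 4 libraries of high Xist held 455.9 to 1181 CPM and the 4 of low Xist 2737 to 2849, and in strain-129 the ranges were 860.6 to 1320 and 2027 to 2739. High-Xist libraries were below all low-Xist libraries in 7 of 8 strains, with ratios of medians of 0.302 to 0.535, and overlapped them in Cast (ratio 0.789). There the high-Xist libraries held 287.3 to 837.4 CPM. The low-Xist Cast 5 and Cast 6, which stood apart above, held 251.2 and 83.8 CPM, and Cast 7 and Cast 8 held 1675 and 1816. Ces2c was below without overlap in 4 strains, as in WSB with 5.42 to 8.58 against 47.3 to 103.3 CPM. Ces1c went the other way: high-Xist libraries were above without overlap in 6 strains, as in B6 with 2964 to 3211 against 1394 to 1938 CPM, and overlapped in AJ and NZO. How many of all genes tested separate without overlap was not counted, so these numbers of strains have no background beside them. With Xist in the model, all 36 combinations of member and strain that had been called stayed called in the same direction, and 6 more were called. Of the pairwise tests of members, 51.8% in place of 46.1% were called. How many strain contrasts of all genes were called in that model was not counted.

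**Figure D5:**
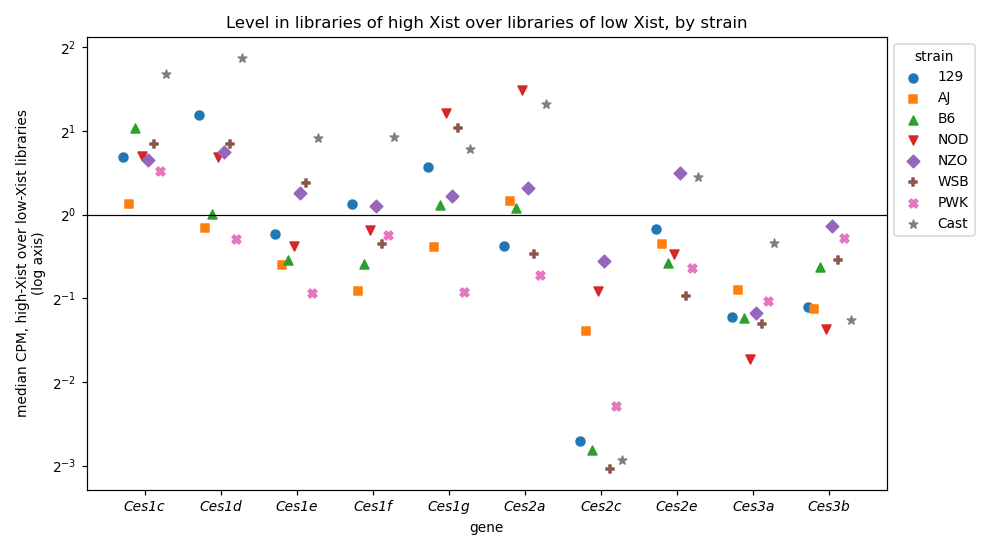
Ratio of the median CPM of high-Xist libraries to that of low-Xist libraries (log axis) for each gene, with 1 symbol per strain. Ces2c, Ces3a and Ces3b lie below 1 in all 8 strains and Ces1c above 1 in all 8, while the other 6 genes fall on both sides.

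Members varied together in part. Over the 8 strain means of log2 CPM, Pearson's r was 0.95 between Ces1d and Ces1e, 0.90 between Ces1c and Ces1e, 0.86 between Ces1g and Ces2e, and 0.80 between Ces3a and Ces3b. Cast was the lowest point of Ces1c, Ces1d, Ces1e and Ces1g, PWK of Ces2e and NZO of Ces3a and Ces3b. Without the 5 libraries named above these values were 0.85, 0.67, 0.83 and 0.78. Within strains, over 60 libraries, r was 0.87 between Ces1e and Ces1f and 0.83 between Ces3a and Ces3b, and 0.49 and 0.78 over the 55 libraries that remain. Ces1c and Ces2c had an r of -0.28 over 60 libraries and of -0.81 over 55, and Ces1c and Ces3a 0.05 and -0.73. These coefficients describe libraries that share strain, depth and, within a strain, the split by Xist, and Ces3a and Ces3b also share reads.

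The genes outside the family that were most like each member over the 60 libraries were found by Pearson's r of log2 CPM, 3 for each, and r was between 0.80 and 0.92. The first was Slco2b1 for Ces1c (r = 0.90), Agmo for Ces1d (0.91), Sult1b1 for Ces1e (0.92), Sdha for Ces1f (0.90) and Camk1d for Ces1g (0.89). It was Gstm3 for Ces2a (0.86), Cyp2j6 for Ces2c (0.83), Tfpi2 for Ces2e (0.91), Gulo for Ces3a (0.87) and Cyp2d10 for Ces3b (0.81). Slco2b1 was also among the first 3 for Ces1d, and none of the 29 genes found lies on chromosome 8. The search left out the members, and the share of all genes tested that lie on chromosome 8 was not counted. The 60 libraries include those of NZO, Cast and NOD that stood apart from their strain. The search was not repeated without them, so their part in these r values was not tested.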

How the data were processed

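Estimated counts per gene were deposited by the authors without normalisation, and 20.96% of these were not whole. A companion table deposited by the authors holds variance-stabilised values on a log2 scale. Per the submitters' processing notes, the build was GRCm38 and DESeq2 was used, with no version given; aligner, counter, annotation release and strandedness were not given in the sources used here. The test planned for counts was applied to estimated counts rounded to whole numbers. Of 61 labelled samples 60 had a column; B6 5 had none, and 1 column that matched no labelled sample was not used.

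A model with strain as its factor was fitted over 60 libraries by edgeR 4.0.16 (R 4.3.3), using TMM scaling, filterByExpr by strain and the quasi-likelihood F test, and was tested on simulated data first. Contrasts were each strain against the mean of the other 7 and all 28 pairs, two-sided, adjusted by Benjamini-Hochberg within a contrast over 16165 genes, threshold 0.05. The standard error is the absolute fold change over the square root of F. Correlations and variance shares used log2 CPM (prior count 2). Alternatives used DESeq2 1.42.0 and limma 3.58.1. Sequences were aligned with Biopython 1.88.

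The text names the members, genes of fixed lists and, for each member, the 3 genes of highest r; genes used to describe libraries that stand apart (Saa1, Saa2, Lcn2 and Cyp3a11) were chosen after their values were seen. Members and lists were chosen with earlier results of these data known. Precision follows depth: at 30.4 M reads, 1 CPM is about 30.4 reads.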

Additional observations from a re-analysis of the deposited data

Results flagged for a closer look

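In 80 groups of a member in a strain, 7 held a library whose gap to the nearest other one was large for the range of its group. The cut is set to flag about 1 in 20 groups by chance if values are normally distributed, which was not tested for these levels. In the NZO library numbered 8, Ces1e was 23.4 CPM against 176.8 to 216.7 in the other 7, Ces1f was 3.41 CPM against 258.9 to 307.4, Ces1g was 90.8 CPM against 237.0 to 313.3, and Ces2a was 9.45 CPM against 54.4 to 93.6. In the NZO library numbered 6, Ces3a was 1225 CPM, above the 212.8 to 669.9 of the others. Ces1g was 48.1 CPM in the PWK library numbered 5, where the others held 4.86 to 13.7, and 67.3 CPM in the WSB library numbered 9, where the others held 12.7 to 34.2.

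For Ces1e, all high-Xist libraries were above all low-Xist libraries in 2 strains (Cast and NZO) and below them in 3 (AJ, B6 and PWK). For Ces2a, they were above in 1 strain (Cast) and below in 1 (WSB). These differences between strains were not tested, and the share of all genes that separate in this way was not counted.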

How the results depend on the processing

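All 10 members differed among strains under every alternative run, including each of 60 fits without 1 library, and no called fold change turned its direction. RLE normalization changed none of the 80 calls of a member in a strain. DESeq2 added 4, and the Xist covariate added 6. With limma on the authors' variance-stabilised values 4 calls were lost and 3 gained. Without the counts of Rn18s-rs5, a gene related to ribosomal RNA, Ces1d in B6 was lost and Ces3a in PWK gained. The count for strain-129 went from 1 member to 2 with the Xist covariate, to 0 with limma, to 2 without NZO 8, Cast 5 and Cast 6, and to 2 without NOD 1 and NOD 2 (both choices made after seeing the data). NZO went from 6 to 8 with the Xist covariate and without NZO 8, Cast 5 and Cast 6, and NOD from 6 to 4 with limma and without NOD 1 and NOD 2. Leaving out 1 library at a time gave 0 to 2 members in strain-129 and 3 to 7 in NOD, whose low end came without NOD 1 or NOD 2. Of the 36 calls, 28 were kept in all of these fits, and 7 of 44 uncalled combinations gained a call in at least 1. For strain contrasts, shares of all genes called were counted in the main model only, so these changes have no background beside them. The cause of these changes was not tested.

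Labels number the samples within each strain, and nothing in them says that a number pairs samples. Libraries of the same number in different strains had a median correlation of deviations of 0.201 over 181 pairs. It was -0.07 over 1392 pairs of different numbers, and the lowest value for the same number was -0.43. The main model did not pair libraries by number. In strain-129, AJ, B6, NOD and NZO the libraries numbered 1 to 4 were those of high Xist, and in Cast those numbered 1 to 3. Number and the Xist split thus overlap, and what libraries of the same number share was not tested. With the replicate number as a block, 47.5% in place of 46.1% of the 280 pairwise tests were called, 7 members in place of 6 in each of Cast, NOD and NZO, and 5 in place of 4 in PWK; no call was lost.

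Ces2c was the member of lowest level, with a median of 0.88 CPM in Cast. Its coefficient of variation was 118.8% there and 97.0% in WSB, where the mean was 37.0 CPM. The part of depth in this spread was not tested.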
